A study of Mus musculus with 3 samples.

Results

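Nodal and activin signalling was followed in mouse embryonic stem cells through 9 genes: the ligand genes Nodal, Gdf3 and Inhbb, the co-receptor gene Tdgf1, and the inhibitor genes Lefty1, Lefty2, Fst, Smad7 and Skil. They were chosen by symbol, with earlier results of these data known, and all 9 were found among the 32285 genes of the count tables. The cells were E14 (129/Ola background), an established line of pluripotent cells derived from the mouse embryo, plated on gelatin in medium with serum and leukemia inhibitory factor (LIF). From 24 h after plating, cells received 250 µg/mL cycloheximide, an inhibitor of translation elongation, in 0.007% ethanol for 3 h or for 6 h, while the control received ethanol without the drug for 6 h. All 3 groups were then frozen, thawed and sequenced as single cells from the 3′ end of polyadenylated RNA. Each group was 1 library of 1 line, with no ethanol control of 3 h, so no difference given here has a replicate check and no test between conditions was made.

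Nodal, activins and Gdf3 belong to the transforming growth factor beta superfamily. Nodal binds activin receptors together with the co-receptor Cripto, activins bind the same receptors without it, and the receptors phosphorylate Smad2 and Smad3, which act in the nucleus with Smad4 and partners such as Foxh1. Lefty1, Lefty2, Smad7 and Skil are known both as inhibitors of this signal and as genes that the signal or its relatives can induce, a negative feedback loop, and Nodal can also induce its own transcription. In cultures of mouse embryonic stem cells the pathway is active at a low level and is known for its part in the exit from naive pluripotency.

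Promoter sequences were at hand for Nodal, Inhbb and Tdgf1 only, and all 3 are shown, without a choice by ratio. After 6 h and among the ligand and co-receptor genes, they had the highest ratio to control, the lowest ratio and the ratio closest to equality. Each is the stretch of 250 bases that ends just before the RefSeq transcription start, on the GRCm38.p6 build, written 5′ to 3′ on the strand of the gene. Nodal is given for chr10:61417722-61417971 (plus strand), Inhbb for chr1:119422249-119422498 (minus strand) and Tdgf1 for chr9:110946159-110946408 (minus strand). Capitals mark 2 motifs searched on both strands, CAGAC, a Smad binding element, and AATNNACA, a Foxh1 motif.
Nodal: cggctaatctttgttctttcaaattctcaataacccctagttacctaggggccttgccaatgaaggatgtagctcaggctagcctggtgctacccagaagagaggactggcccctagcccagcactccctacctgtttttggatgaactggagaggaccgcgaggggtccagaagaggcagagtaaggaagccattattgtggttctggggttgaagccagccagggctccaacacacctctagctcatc
Inhbb: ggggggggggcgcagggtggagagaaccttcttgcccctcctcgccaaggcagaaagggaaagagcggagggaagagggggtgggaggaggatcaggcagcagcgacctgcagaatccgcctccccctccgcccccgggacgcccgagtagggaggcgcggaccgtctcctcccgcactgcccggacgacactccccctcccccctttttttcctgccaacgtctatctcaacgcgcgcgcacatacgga
Tdgf1: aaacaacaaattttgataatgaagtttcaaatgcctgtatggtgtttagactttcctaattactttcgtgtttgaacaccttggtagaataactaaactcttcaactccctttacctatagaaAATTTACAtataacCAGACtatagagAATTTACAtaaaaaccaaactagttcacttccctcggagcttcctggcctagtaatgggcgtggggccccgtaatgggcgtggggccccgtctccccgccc

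The Tdgf1 stretch held 2 copies of AATNNACA with 1 CAGAC between them, on the strand of the gene and without overlap. Neither motif was in the Nodal or Inhbb stretch, and GTCTAGAC, the palindromic Smad site, was in none of the 3. Among 32851 promoter stretches of equal length, 42.2% held CAGAC, 10.9% held AATNNACA and 0.167% held GTCTAGAC. The G and C content was 68.0% for Inhbb, 53.2% for Nodal and 42.0% for Tdgf1, beside a median of 52.4% over all stretches. These matches describe letters in a short window and say nothing of binding.

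Cells were barcodes with at least 15000 unique molecular identifiers (UMIs, the tags that mark single captured molecules) of which 1% to 20% were from mitochondrial genes. This gave 2187 control cells, 1739 cells after 3 h and 2554 cells after 6 h, with median depths of 43160, 51726 and 46200 UMIs per cell. The limit of 1% left out 62 control barcodes, 1 barcode after 3 h and 8 after 6 h, and at most 3 cell barcodes were shared between any pair of libraries. All 7 pluripotency markers were detected in every library, with summed levels, in UMIs per 1000000 UMIs of the cells (CPM), of 6731 CPM in the control, 7652 CPM after 3 h and 7046 CPM after 6 h. Most of each sum was Dppa5a, at 4771, 5327 and 5475 CPM in that order. All 7 were above the control after 3 h, but after 6 h only 2 were, Dppa5a and Nanog. Zfp42 was at 455, 592 and 240 CPM and Sox2 at 213, 285 and 146 CPM in the control, 3 h and 6 h libraries. Of 7 fibroblast or feeder markers, 4, 4 and 3 were at 0 in the control, 3 h and 6 h libraries, and the list summed to at most 2.48 CPM. Primitive endoderm markers summed to 25.5 CPM in the control, 20.2 CPM after 3 h and 14.4 CPM after 6 h with none of the 7 at 0, while single markers differed in direction. Sox7 was at 5.55, 1.32 and 0.299 CPM, Gata4 at 1.88, 2.42 and 3.35 CPM and Sox17 at 0.494, 1.41 and 1.08 CPM in the same order of libraries. Two-cell-like markers summed to 0.592 and 0.215 CPM in the control and after 3 h, and all 5 were at 0 after 6 h, for which the exact upper limit is 0.0263 CPM per gene.

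Levels are UMIs summed over the cells of a library and scaled to the total over those cells as CPM, and ratios are log2 ratios of CPM. Intervals in brackets are 95% exact intervals, or Wald intervals for a difference between the log2 ratios of 2 genes, and cover counting error only. In these summed values, fewer cells with a transcript and less transcript per cell cannot be told apart, and changes of synthesis and of decay cannot either. CPM counts molecules captured by the 3′ end, so values are compared for each gene between libraries and not between genes.

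Among the ligand genes, Nodal and Gdf3 were higher after cycloheximide and Inhbb was lower. Nodal (ENSMUSG00000037171, chr10:61417972-61425338, plus strand), which encodes the Nodal ligand itself, was at 31.3 CPM in the control, 70.5 CPM after 3 h and 79.8 CPM after 6 h. Both cycloheximide libraries stood well above the control and close to each other. The ratio of Nodal to control was 2.25-fold after 3 h (2.16 to 2.34, log2 1.17) and 2.55-fold after 6 h (2.45 to 2.65, log2 1.35). At 6 h against 3 h, Nodal differed by 1.13-fold (1.10 to 1.17), and when levels were taken as UMIs per cell the log2 ratio between these times was 0.018. Among the 7608 genes that averaged 10 CPM or more over the libraries, 221 had a higher ratio than Nodal after 3 h and 314 after 6 h.

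Gdf3 (ENSMUSG00000030117, chr6:122605403-122610087, minus strand) encodes a growth and differentiation factor that works with Nodal in the early embryo. Its level was 142 CPM in the control, 213 CPM after 3 h and 280 CPM after 6 h. Each library lay above the one of shorter exposure. Gdf3 was 1.51-fold the control after 3 h (1.47 to 1.54) and 1.97-fold after 6 h (1.94 to 2.01), just under 2-fold.

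Inhbb (ENSMUSG00000037035, chr1:119415465-119422248, minus strand) encodes the beta B subunit, from which activin B and inhibin B are built. Inhbb stood at 37.8 CPM in the control, 22.8 CPM after 3 h and 4.30 CPM after 6 h. Each library lay below the one of shorter exposure, and most of the difference on the log2 scale lay between 3 h and 6 h. The log2 ratio to control was -0.73 after 3 h (-0.80 to -0.66) and -3.13 after 6 h (-3.26 to -3.01), so that after 6 h the control was 8.77-fold higher. Of the 7608 genes, 4 had a lower ratio than Inhbb after 6 h, whereas 94 did after 3 h. Nodal and Inhbb thus parted by 1.90 on the log2 scale after 3 h (95% Wald interval 1.80 to 1.99) and by 4.48 after 6 h (4.35 to 4.62).

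Tdgf1 (ENSMUSG00000032494, chr9:110939603-110946158, minus strand) encodes Cripto, the co-receptor for Nodal and Gdf3. It was at 364 CPM in the control, 426 CPM after 3 h and 313 CPM after 6 h, above the control at the earlier time and below it at the later one. The log2 ratio to control was 0.23 after 3 h (0.21 to 0.25) and -0.22 after 6 h (-0.23 to -0.20), and the 6 h library was at -0.44 against 3 h. Scaling with TMM factors of edgeR brought the ratio after 3 h to 0.05. Processed pseudogenes of Tdgf1 exist in the mouse genome, and how the counting treated reads shared with them is not given in the sources used here.

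**Figure D1:**
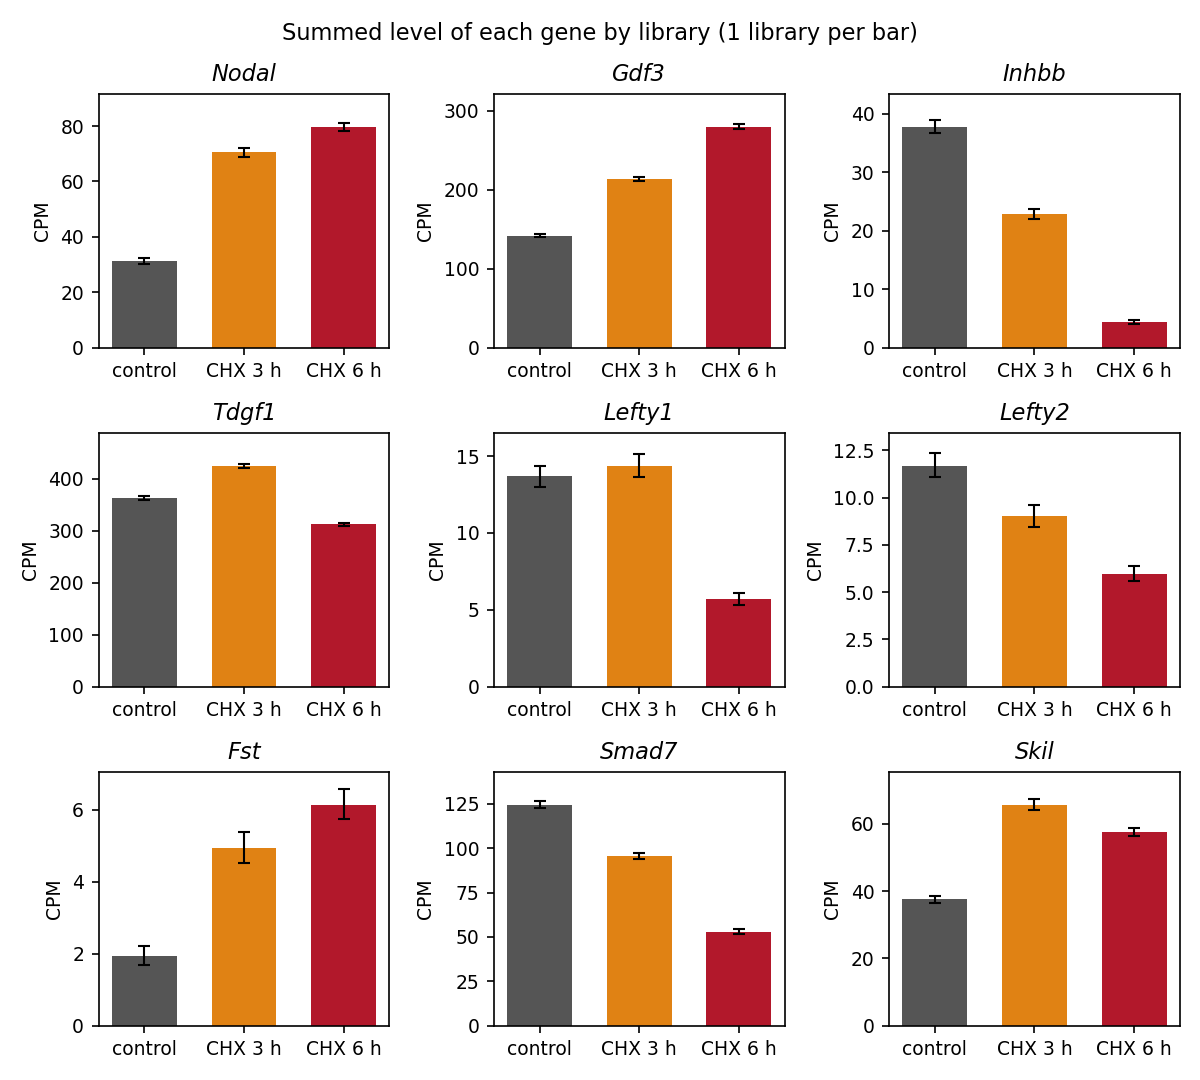
Level of each of the 9 genes in CPM (vertical axes, each from 0) in the control, 3 h and 6 h libraries, 1 library per bar, with 95% exact Poisson intervals that cover counting error only. Nodal, Gdf3, Fst and Skil were lowest in the control, Inhbb, Lefty2 and Smad7 were highest there, and Lefty1 was low only after 6 h.

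Extracellular inhibitors went different ways. Lefty1 (ENSMUSG00000038793, chr1:180935022-180938400) and Lefty2 (ENSMUSG00000066652, chr1:180893108-180899103) are neighbours on the plus strand and encode secreted antagonists of Nodal. Lefty1 was at 13.7 CPM in the control, 14.4 CPM after 3 h and 5.72 CPM after 6 h. The control and 3 h values were close, with a log2 ratio of 0.07 whose interval held equality (-0.03 to 0.18) and which was -0.10 under TMM factors. At 6 h Lefty1 was well below both, at log2 -1.26 against control (-1.38 to -1.13) and -1.33 against 3 h (-1.46 to -1.21). Only 24 of the 7608 genes had a lower ratio than Lefty1 between 3 h and 6 h.

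Lefty2 was at 11.7 CPM in the control, 9.01 CPM after 3 h and 5.96 CPM after 6 h, already below the control in the 3 h library. Its log2 ratio to control was -0.38 after 3 h (-0.50 to -0.25) and -0.97 after 6 h (-1.10 to -0.84). Lefty1 made up 53.9% of the summed Lefty UMIs in the control (exact Clopper-Pearson interval 52.1 to 55.8), 61.5% after 3 h (59.5 to 63.4) and 48.9% after 6 h (46.5 to 51.4). The share was highest after 3 h and its intervals did not overlap between libraries. In the annotated transcripts, 0 of 271 windows of 30 bases in the last 300 bases of Lefty1 also occurred in Lefty2, and 407 of 1591 windows (25.6%) did over the whole transcript.

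Fst (ENSMUSG00000021765, chr13:114452290-114458951, minus strand) encodes follistatin, which binds activins and keeps them from their receptors. With 215 UMIs in the control, 527 after 3 h and 862 after 6 h, it was the sparsest of the 9 genes. Its levels of 1.93, 4.93 and 6.14 CPM put the control lowest. Fst was 2.55-fold the control after 3 h (2.18 to 3.01) and 3.18-fold after 6 h (2.74 to 3.71). Gm47040 overlaps Fst on the other strand in the annotation.

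The intracellular inhibitors also parted. Smad7 (ENSMUSG00000025880, chr18:75367529-75395935, plus strand) encodes an inhibitory Smad that blocks the activated receptor. It was at 125 CPM in the control, 95.7 CPM after 3 h and 53.0 CPM after 6 h, each step lower than the last. The log2 ratio of Smad7 to control was -0.38 after 3 h (-0.42 to -0.34) and -1.23 after 6 h (-1.27 to -1.19).

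Skil (ENSMUSG00000027660, chr3:31095058-31122577, plus strand) encodes SnoN, a nuclear repressor that binds Smad complexes. It stood at 37.5 CPM in the control, 65.7 CPM after 3 h and 57.5 CPM after 6 h, higher in both cycloheximide libraries and highest after 3 h. Skil was 1.75-fold the control after 3 h (1.69 to 1.82) and 1.53-fold after 6 h (1.48 to 1.59). The log2 ratio of Skil exceeded that of Smad7 by 1.19 after 3 h (1.12 to 1.26) and by 1.85 after 6 h (1.78 to 1.92).

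Large ratios were more frequent after 6 h than after 3 h, both for the 9 genes and for all genes. At 3 h, 2 of 9 (Nodal and Fst) were at least 2-fold higher than control and 0 were 2-fold lower. Among the 7608 genes of at least 10 CPM, 4.32% were 2-fold higher and 0.513% 2-fold lower after 3 h. At 6 h, Nodal and Fst were again 2-fold higher, and 3 genes (Inhbb, Lefty1 and Smad7) were 2-fold lower, where 8.65% of all genes were higher and 2.41% lower. At 6 h against 3 h, 0 were 2-fold higher and 2 (Inhbb and Lefty1) were 2-fold lower, beside 0.145% and 0.657% of all genes. Lefty2 and Fst lay under 10 CPM on average. Over the 7 genes above it, 1 was 2-fold higher and 0 lower after 3 h, 1 higher and 3 lower after 6 h, and 0 higher and 2 lower at 6 h against 3 h. Their median log2 ratio was 0.23 after 3 h, -0.22 after 6 h and -0.44 between the times, beside 0.11, 0.17 and 0.044 for all 7608 genes.

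The scaling moved these medians. Under TMM factors the median over all genes was -0.063 after 3 h and -0.12 after 6 h, and by UMIs per cell it was 0.38 and 0.27. Under TMM factors Nodal was at 0.995 on the log2 scale after 3 h, below the limit of 1, and Lefty2 at -1.26 after 6 h was past it. By UMIs per cell Skil at 1.08 after 3 h and Gdf3 at 1.09 after 6 h were also past 2-fold. Lefty1 after 3 h was the only one of 27 ratios (9 genes in 3 comparisons) whose sign changed under any alternative that was run, and the only one whose interval held equality.

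**Figure D2:**
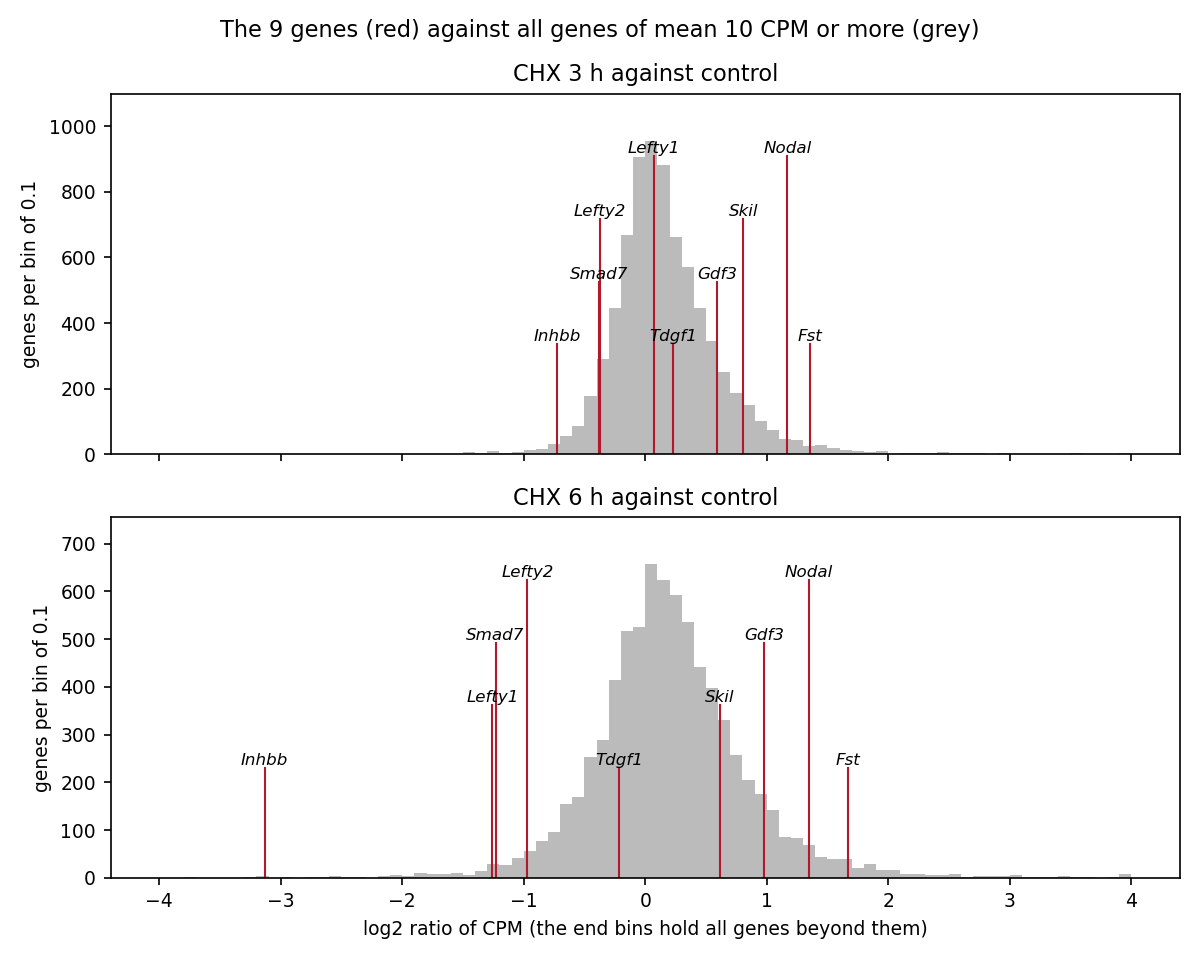
Log2 ratio of CPM (horizontal axis) after 3 h and after 6 h against control for the 9 genes (red lines, of arbitrary height), over the number of the 7608 genes per bin of 0.1 (grey bars, the end bins hold genes beyond them). Inhbb at -3.13 and Lefty1, Smad7 and Lefty2 between -1.26 and -0.97 after 6 h lie in the lower tail, while Nodal and Fst lie in the upper tail at both times. Lefty2 and Fst are drawn although they lie under the floor of 10 CPM.

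**Figure D3:**
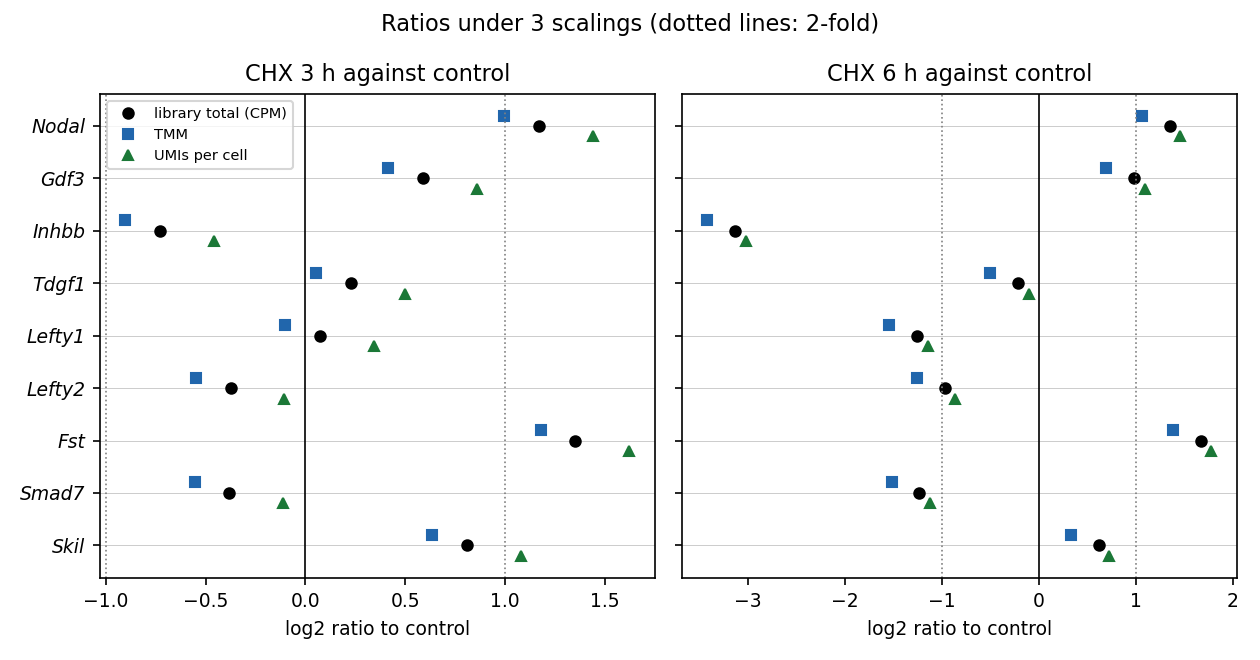
Log2 ratio to control (horizontal axes) of the 9 genes after 3 h and 6 h under library totals (circles), TMM factors (squares) and UMIs per cell (triangles), with dotted lines at 2-fold. The scaling shifted all genes together, and Lefty1 after 3 h lay on both sides of 0.

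Ligand and feedback inhibitors were then compared within each library, where no scaling enters. The number of Nodal UMIs per UMI of Lefty1 and Lefty2 together was 1.23 in the control, 3.01 after 3 h and 6.83 after 6 h. Nodal thus exceeded the Lefty genes in log2 ratio by 1.29 after 3 h (95% Wald interval 1.19 to 1.38) and by 2.47 after 6 h (2.36 to 2.57), which is 2.44-fold and 5.53-fold. Between 3 h and 6 h the difference was 1.18 (1.08 to 1.28). Summed Lefty was at 25.4 CPM in the control, 23.4 CPM after 3 h and 11.7 CPM after 6 h. The step to 3 h therefore lay mostly in Nodal, at log2 1.17, and the step from 3 h to 6 h mostly in Lefty, since Nodal differed by 0.18 between those times. Gdf3 exceeded the Lefty genes by 0.71 after 3 h and 2.10 after 6 h, and Nodal exceeded Smad7 by 1.55 and 2.58. Against Skil, the inhibitor that was higher after cycloheximide, Nodal was ahead by 0.36 (0.28 to 0.44) and 0.73 (0.66 to 0.81).

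The activin arm showed the opposite order. The log2 ratio of Inhbb was below that of Fst by 2.08 after 3 h, with a difference of -2.08 (-2.32 to -1.84), and the difference was -4.80 after 6 h (-5.05 to -4.55). Inhbb UMIs per Fst UMI were 19.6 in the control, 4.63 after 3 h and 0.701 after 6 h. Against the Lefty genes Inhbb was at -0.61 (-0.72 to -0.50) after 3 h and -2.01 (-2.17 to -1.86) after 6 h.

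The share of cells with at least 1 UMI gave the same order of the 3 libraries as CPM for all 9 genes, after each cell was thinned to 15000 UMIs, which left out no cell. Nodal was seen in 36.3% of control cells (exact Clopper-Pearson interval 34.3 to 38.4), 62.4% after 3 h (60.1 to 64.7) and 65.9% after 6 h (64.0 to 67.7). Without thinning these shares were 71.5%, 92.9% and 92.4%. Inhbb was seen in 39.6%, 27.4% and 6.23% of thinned cells in the same order of libraries, and without thinning in 75.3%, 60.4% and 18.4%. Smad7 was seen in 77.6%, 69.9% and 49.3%, and Skil in 40.4%, 55.2% and 52.1%. Gdf3 at 85.0%, 93.4% and 96.5% and Tdgf1 at 98.4%, 99.5% and 97.8% were near the ceiling. Fst was at 2.42%, 5.64% and 8.38%, Lefty1 at 13.5%, 14.3% and 6.15%, and Lefty2 at 13.9%, 12.02% and 7.24%.

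Free RNA in the droplets carried the same genes. In barcodes of 10 to 100 UMIs, Nodal was at 22.0, 48.4 and 44.4 CPM and Inhbb at 38.3, 27.2 and 2.04 CPM in the control, 3 h and 6 h libraries. Skil was higher in free RNA than in cells in every library, at 43.4, 87.1 and 71.4 CPM, and Fst was so in the control, at 2.50 CPM (9 UMIs). Inhbb was also higher in free RNA in the control and after 3 h, where cells held 37.8 and 22.8 CPM. No set of cells known to lack these transcripts was defined, so no background share of cells was set, and the part of free RNA in the shares was not tested. Subtracting 10% free RNA left the difference between Nodal and the Lefty genes at 1.27 after 3 h and 2.45 after 6 h.

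**Figure D4:**
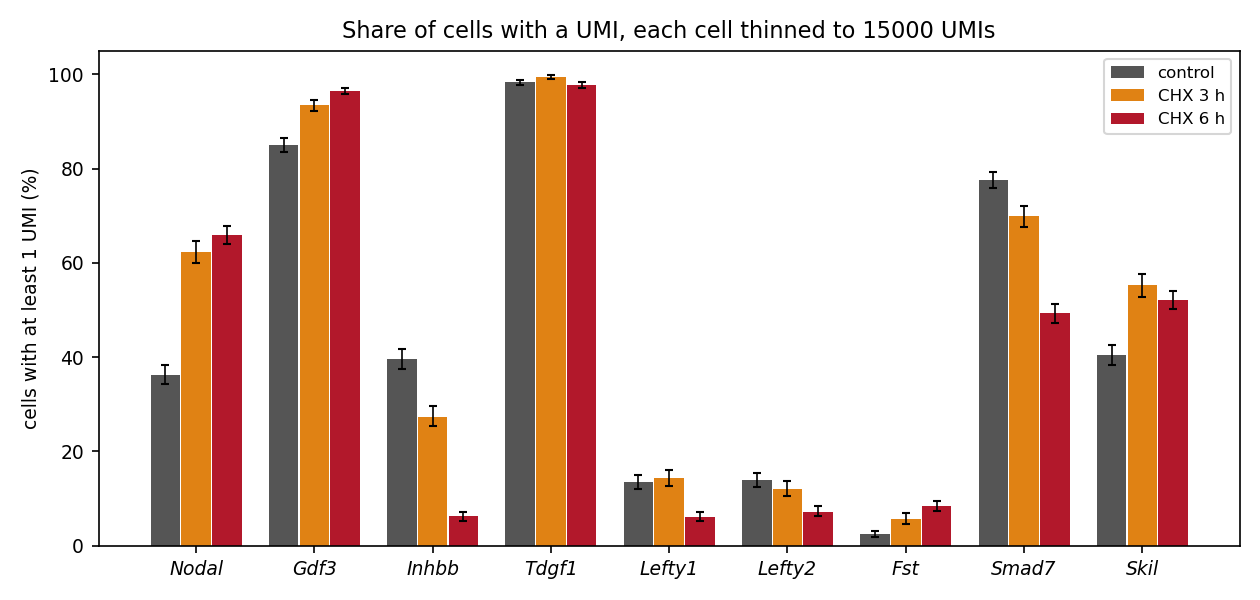
Share of cells with at least 1 UMI of each gene (vertical axis, percent) after thinning each cell to 15000 UMIs, for the control, 3 h and 6 h libraries, with 95% exact Clopper-Pearson intervals. Nodal went from 36.3% to 65.9% of cells and Inhbb from 39.6% to 6.23% between the control and 6 h.

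Lefty1 was the most unevenly spread of the 9 genes over cells, by variance over mean. A single unthinned cell held up to 39 Lefty1 UMIs in the control, 50 after 3 h and 28 after 6 h. The 1% of cells with the most Lefty1 (22, 17 and 26 cells) held 23.4%, 24.9% and 21.7% of its UMIs. For Nodal, which had more UMIs in every library, the same share was 5.33%, 4.29% and 5.12%. For the sparse Fst it was 23.3%, 15.0% and 16.4%, and for Lefty2 12.5%, 11.9% and 19.95%. By this measure Fst was thus close to Lefty1 in the control. After thinning, the variance of Lefty1 over its mean was 2.94 in the control, 3.34 after 3 h and 2.43 after 6 h, where sampling alone gives 1, and that of Nodal was 1.08, 1.24 and 1.20. Lefty2 had values of 1.36, 1.26 and 1.34. With the top 1% of cells set aside, Lefty1 was at 10.5, 10.8 and 4.48 CPM, so the lower value after 6 h was also present in the other cells.

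Lefty2 was seen more often in cells with Lefty1. In the control, 24.7% of 296 cells with a Lefty1 UMI (19.9 to 29.98) and 12.2% of 1891 cells without one (10.7 to 13.7) had Lefty2. The shares were 19.0% and 10.9% after 3 h, and 15.3% and 6.72% after 6 h. Lefty1 was seen in 16.0% of control cells with Nodal (13.5 to 18.7) and 12.1% of those without (10.5 to 13.96). These shares were 15.2% and 12.7% after 3 h, and 6.24% and 5.97% after 6 h. The intervals with and without Nodal overlapped in every library, which does not show that the shares were equal. The differences were 3.86 points in the control, 2.52 after 3 h and 0.27 after 6 h, and were not tested.

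Skil was seen about as often in control cells with Smad7 as in those without it, and more often with it in both cycloheximide libraries. In the control, Skil was seen in 40.3% of cells with Smad7 (38.0 to 42.7) and in 40.8% of cells without it (36.4 to 45.3). At 3 h it was seen in 58.4% (55.6 to 61.2) against 47.7% (43.4 to 52.1), and after 6 h in 58.8% (56.0 to 61.5) against 45.6% (42.8 to 48.3). Pearson's r of their thinned counts was -0.025 over 2187 control cells, 0.233 over 1739 cells after 3 h and 0.211 over 2554 cells after 6 h, and Spearman's rho was -0.015, 0.180 and 0.177. Of the 36 pairs among the 9 genes, this pair had the highest r after 3 h and after 6 h, and Lefty1 with Lefty2 had the highest in the control (0.178). All cells of a library share its preparation and free RNA, counts were thinned to equal depth, and cells are not replicates, so these values are descriptions. Across cells, the rank correlation of thinned Smad7 with total UMIs was -0.0062 in the control, -0.029 after 3 h and -0.091 after 6 h, and that of Skil was -0.038, -0.073 and -0.085. Free RNA held Smad7 at 74.5, 55.7 and 36.2 CPM, below its level in cells, and Skil above its level in cells, and their part in this joint detection was not tested. Whether the difference between libraries exceeds that between cultures was not tested.

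**Figure D5:**
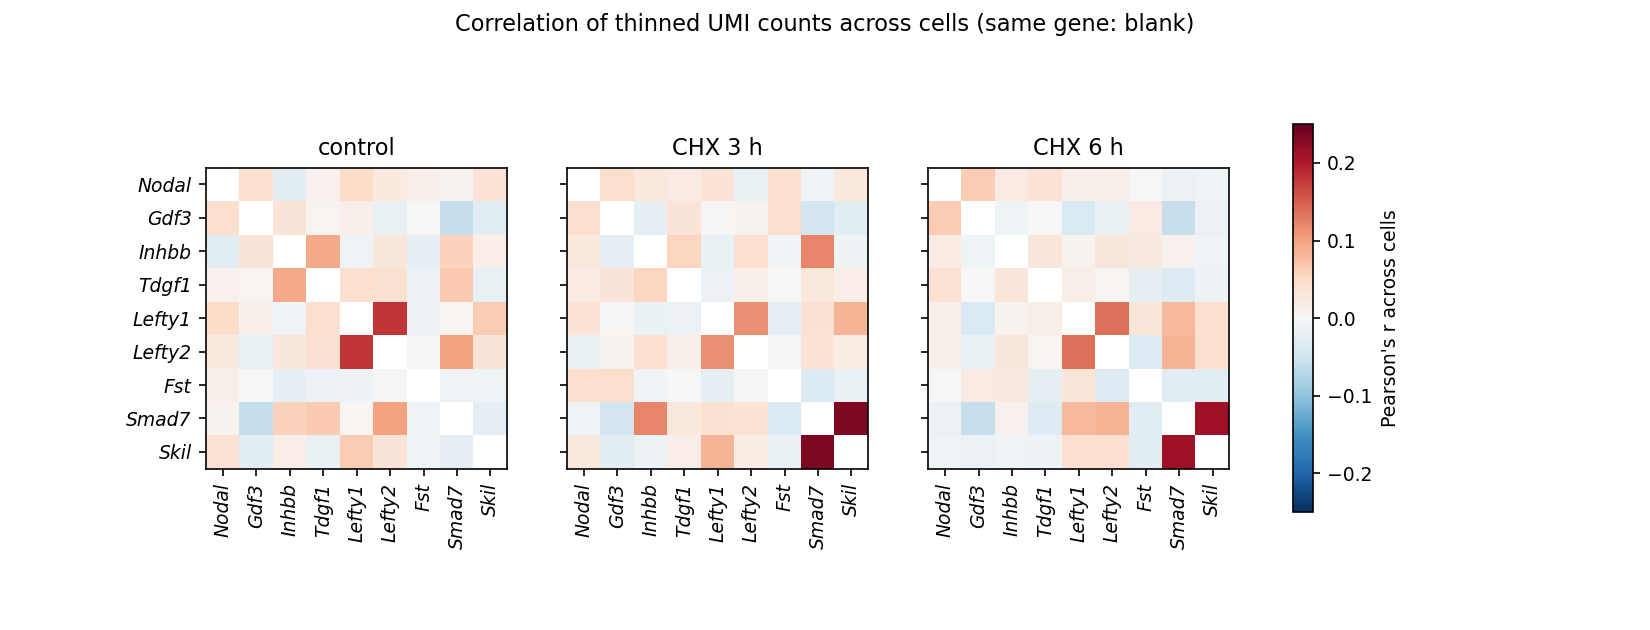
Pearson's r of thinned UMI counts across cells for the 36 pairs of the 9 genes in each library (colour scale from -0.25 to 0.25, both axes list the genes). Lefty1 with Lefty2 stands out in the control at 0.178, and Smad7 with Skil after 3 h (0.233) and 6 h (0.211).

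Other genes of the pathway were read from lists by role. Among all 7608 genes, 4.32% were 2-fold higher and 0.513% lower after 3 h, and 8.65% higher and 2.41% lower after 6 h. The medians over all these genes were 0.11 and 0.17. Of 9 genes for other ligands and their processing, 1 lay above 10 CPM, Pcsk6, a convertase that can cleave Nodal precursor, at 26.2, 23.9 and 19.6 CPM in the control, 3 h and 6 h libraries. Of 8 receptor and co-receptor genes, Acvr2b (12.8, 15.0 and 14.4 CPM) and Tgfbr1 (8.66, 12.5 and 13.996 CPM) lay above that floor, with 0 past 2-fold and a median log2 ratio of 0.38 after 3 h and 0.43 after 6 h. Below the floor, the receptor gene Acvr1b was at 7.69, 7.54 and 7.47 CPM and the type II receptor gene Acvr2a at 3.67, 7.90 and 10.3 CPM. Of 7 genes for Smads and nuclear partners, the 3 above the floor were the signal transducers Smad2 (32.6, 35.2 and 30.1 CPM) and Smad4 (32.7, 33.8 and 34.6 CPM) and the ubiquitin ligase gene Trim33 (34.8, 49.4 and 53.2 CPM), with 0 past 2-fold and medians of 0.11 and 0.081.

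Of 12 other inhibitor genes, 8 lay above the floor, with 1 past 2-fold higher after 3 h, 1 higher and 1 lower after 6 h, and medians of 0.039 and -0.22. The shares over all genes were 4.32% higher after 3 h, and 8.65% higher and 2.41% lower after 6 h. The higher one was Bambi, which encodes a decoy receptor, at 11.3 CPM in the control, 29.3 CPM after 3 h and 40.0 CPM after 6 h. The lower one was Ski, the closest relative of Skil, at 41.2, 32.4 and 20.1 CPM, a log2 ratio of -1.04 after 6 h where Skil was at 0.62. Tgif1, which encodes a Smad corepressor, was at 100, 107 and 61.4 CPM. None of 7 genes listed as mesendoderm targets lay above the floor. Together they summed to 4.31, 12.4 and 10.6 CPM, of which Otx2 was the largest part, at 2.15, 8.05 and 5.99 CPM. With no floor, 4 of the 7 were 2-fold higher after 6 h and 1, Fgf8, was 2-fold lower. At that setting, where sparse genes enter, 6614 of 23123 genes in all were 2-fold higher and 1619 were 2-fold lower.

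In the bone morphogenetic protein (BMP) branch, which uses other Smads, 7 of 10 genes lay above the floor and 2 were past 2-fold higher at both times, with medians of 0.36 and 0.18. Among all genes 4.32% were 2-fold higher after 3 h and 8.65% after 6 h. The 2 BMP branch genes were the BMP targets Id2, at 32.2, 160 and 164 CPM, and Id3, at 46.1, 314 and 185 CPM, whereas Id1 was at 242, 310 and 254 CPM. Bmp4, a ligand gene, was at 101, 68.8 and 55.7 CPM.

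Genes with ratios most like those of 4 of the 9 genes were found by Euclidean distance in the pair of log2 ratios to control, across 3 libraries and 5563 genes that averaged 20 CPM or more. Closest to Nodal were Mgme1 (distance 0.0402), Tmem161b (0.0695) and Zfp35 (0.0727). Lefty1 had Enc1 (0.0139), Itpk1 (0.174) and Eras (0.205) closest, and Skil had Taf8 (0.0270), Hist1h1d (0.0532) and Fam76b (0.0660). Nearest to Inhbb were Spry2 (0.512), Spry4 (0.590) and Mat2a (0.602), at larger distances than for the other 3 genes. Spry2 was at 89.98, 70.5 and 13.05 CPM and Spry4 at 51.9, 28.5 and 3.97 CPM in the control, 3 h and 6 h libraries.

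The annotated 3′ untranslated regions of the 9 genes differed in their number of ATTTA pentamers, the core of AU-rich elements that are known from unstable transcripts. Skil had 14 and Fst had 10, while 2.91% of 7488 genes had at least as many as Skil and 7.24% at least as many as Fst. The region of Skil is long, at 3964 bases beside a median of 1081, so Skil had 3.53 per kilobase and Fst 6.60, and 14.8% and 2.95% of genes were at least as dense. Smad7 had 4, Gdf3 and Inhbb 2 each, Nodal, Tdgf1 and Lefty2 1 each, and Lefty1 had 0, beside a median of 2 and a share of 30.7% of genes with none. A relation of these counts to the ratios was not tested.

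Only 4 of the 7 primitive endoderm markers were used to mark cells. Of these, Gata4, Sox17 and Pdgfra were higher after 6 h than in the control, and Gata6 was lower. The unused Sox7, Dab2 and Col4a1 were all lower, at 0.299, 1.23 and 6.30 CPM after 6 h against 5.55, 1.53 and 12.9 CPM. The share of marked cells thus follows the 4 markers and not the whole list. Cells with at least 2 unthinned UMIs over Gata4, Gata6, Sox17 and Pdgfra made up 1.69% of control cells, 3.16% after 3 h and 4.07% after 6 h. These cells were deeper than the rest, with medians of 63362, 95557 and 65432 UMIs, and held 2.26%, 5.11% and 5.96% of the UMIs of all genes. Over the 9 genes the share held in them ran from 1.40% (Fst) to 2.76% (Lefty1) in the control, from 3.84% (Lefty2) to 6.45% (Fst) after 3 h and from 5.33% (Tdgf1) to 8.94% (Inhbb) after 6 h. Without these cells, a choice made after the marker levels were seen, Lefty1 was at log2 -1.26 after 6 h, and Nodal exceeded the Lefty genes by 1.27 after 3 h and 2.48 after 6 h.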

How the data were processed

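Single-cell RNA of 3 libraries of E14 cells was analysed from the raw UMI counts per gene and barcode that the authors deposited. Cell Ranger 4 made them, per the file headers. The submitters' processing notes name Cell Ranger 4.0.0 and mm10, and the annotation is not given in the sources used here. Positions are from GENCODE M21 on GRCm38, in which 9 of 9 gene identifiers of the chosen genes and 32158 of 32285 in all were found.

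The 3 matrices held 127601369 (control), 115188502 (3 h) and 150987519 (6 h) UMIs, of which the cells held 111447486, 106842407 and 140321458. UMIs were summed per library and scaled to CPM. Log2 ratios used a prior of 0.5 counts, and a gene was called past 2-fold at an absolute log2 ratio of 1. Intervals (95%) are exact Poisson, conditional binomial or Clopper-Pearson, or Wald for differences of log2 ratios. Thinning drew 15000 UMIs per cell without replacement. Doublets were not removed. The calculation of ratios and intervals was checked on simulated Poisson counts only, which held no added spread between cells or libraries.

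All 9 chosen genes are named. Of each other list, up to 4 genes of the highest mean CPM and any past 2-fold with a mean of at least 10 CPM were eligible for naming. The genes and lists were chosen with earlier results of these data known. Alternatives were other UMI and mitochondrial limits, leaving out cells of over 2 times the median UMIs, subtraction of 10% free RNA, TMM factors (edgeR 4.0.16), DESeq2 1.42.0 size factors, UMIs per cell, a prior of 5 counts, other floors and thinning depths. Both tools gave size factors only. Python 3.11.15, numpy 2.4.6, scipy 1.17.1 and R 4.3.3 were used.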

Additional observations from a re-analysis of the deposited data

Results flagged for a closer look

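Tdgf1, the co-receptor gene, moved one way between the control and 3 h and the other way between 3 h and 6 h. Its level was 364 CPM in the control, 426 CPM after 3 h and 313 CPM after 6 h, so the log2 ratio to control was 0.23 after 3 h and -0.22 after 6 h. At 6 h against 3 h the log2 ratio was -0.44. The difference was not tested, since each group was 1 library, and both ratios share the control. Of the 7608 genes of at least 10 CPM, 373 had a lower ratio than Tdgf1 between 3 h and 6 h. The move between the control and 3 h depended on the scaling. Its log2 ratio was 0.053 under TMM and 0.046 under DESeq2 factors, close to equality.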

How the results depend on the processing

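No paired analysis was possible because each group was 1 library. Of the 9 genes, 2 were past 2-fold after 3 h, and 1 (Fst) was under TMM factors and 1 (Fst) under DESeq2 size factors, where Nodal was at 0.995 and 0.988 on the log2 scale. At 6 h the count of 5 became 6 under TMM and DESeq2 factors, which added Lefty2, and 6 by UMIs per cell, which added Gdf3. By UMIs per cell it was 3 after 3 h and 3 at 6 h against 3 h, which added Skil and Smad7. The remaining settings left all 3 counts as they were. The difference between Nodal and the Lefty genes moved by less than its interval in all 18 recomputations, which held UMI and mitochondrial limits, high-UMI cells, free RNA and marker cells. Signs held in 26 of 27 ratios, and the sign of Lefty1 after 3 h turned, to -0.10 under TMM and -0.11 under DESeq2 factors. Among all genes, the number past 2-fold was 368 after 3 h, 841 after 6 h and 61 between the times. It was 5519, 8233 and 4777 with no floor, where sparse genes enter, and 89, 208 and 19 with a floor of 50 CPM, where fewer genes are counted. Depth limits Fst most, with 215 control UMIs. All 54 recomputed shares of cells (25000 UMIs or unthinned) moved with the depth, and the 42 co-detection differences without cells above 2 times the median UMIs did not move beyond their error.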

Other observations

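The relatives Skil and Ski had ratios of opposite sign at both times. Skil was at 37.5 CPM in the control, 65.7 CPM after 3 h and 57.5 CPM after 6 h, and Ski at 41.2, 32.4 and 20.1 CPM, with log2 ratios of -0.35 after 3 h and -1.04 after 6 h. Both encode repressors that bind Smad complexes. Inhibitors of the Nodal and activin signal therefore held genes on both sides after 6 h, with Fst, Bambi and Skil above the control and Lefty1, Lefty2, Smad7 and Ski below it. Dand5, which encodes a secreted antagonist of Nodal and lay below the floor, was at 3.13 CPM in the control, 7.24 CPM after 3 h and 11.1 CPM after 6 h, a value chosen after it was seen.

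In the 6 h library, a single cell held 40 Lefty2 UMIs, where the highest cell of the control had 11 and that of the 3 h library 10. The 1% of cells with the most Lefty2 held 12.5% of its unthinned UMIs in the control, 11.9% after 3 h and 19.95% after 6 h. Lefty2 was also sparser after 6 h, at 0.328 UMIs per cell beside 0.596 in the control and 0.554 after 3 h. Whether the share follows from this was not tested.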
